A study of Mus musculus with 58 samples.

Results

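Kupffer cells and monocyte-derived macrophages (MoMFs) were compared within livers of 129SV mice with advanced cholestatic injury and acute colitis on top of it, the group named CBDL+DSS. Common bile duct ligation (CBDL) blocks bile flow and injures the liver by cholestasis, and dextran sulfate sodium (DSS) is the usual chemical trigger of acute colitis in mice. The comparison rests on the 4 Kupffer cell libraries and the 4 MoMF libraries titled CBDL+DSS, which are 8 of the 58 libraries in the series. The series profiled these cell types and liver monocytes in 5 groups of mice, and the other groups used here are CBDL6w (advanced cholestatic injury, 6 weeks), DSS (acute colitis without ligation) and Sham6w (controls, 6 weeks). Each of them had 4 libraries of either cell type, except for 3 of MoMFs in Sham6w. All mice carried the same strain label, and the labels used here give neither a time for the DSS and CBDL+DSS groups nor the gates or the age.

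Kupffer cells are the resident macrophages of the liver sinusoids. They clear microbes, debris and aged red cells from the blood, and in mice they are known by Clec4f, Vsig4 and Timd4. When the liver is injured, monocytes that carry the chemokine receptor Ccr2 enter from blood and mature into macrophages, which can take up lipids, make matrix proteins and in time acquire Kupffer cell genes.

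The Kupffer cell libraries were labelled 1+3, 2, 4+5 and 6, and the MoMF libraries 1, 2, 3 and 4+5, where a joined number marks pooled replicates. Values per library are normalized counts in these orders, and levels are means ± SD (n = 4 libraries unless said). Differences are Kupffer cells minus MoMFs on the log2(normalized count + 1) scale ± SE, with p-values from limma adjusted by Benjamini-Hochberg over all genes tested. Libraries held 359823 to 512401 reads in Kupffer cells and 192438 to 361588 in MoMFs. Whether the replicates came from separate mice is not stated in the labels, so a p-value here covers spread among libraries, which may be technical. That spread was estimated for each gene over all 58 libraries in 15 groups, not from the compared libraries alone. The SE of a gene can therefore be wider or narrower than its spread within the compared libraries. In bulk libraries, fewer cells of a type and less RNA per cell cannot be told apart.

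The labels were checked against markers. The 25 Kupffer cell identity genes took 0.937% to 1.14% of the reads in Kupffer cells and 0.168% to 0.286% in MoMFs, and the 20 classical monocyte genes 0.108% to 0.161% in Kupffer cells and 0.372% to 0.427% in MoMFs. Both lists separated the libraries by label without overlap. Transcripts of hepatocytes (19 genes) were at 0.0368% to 0.0747% in Kupffer cells and 0.0224% to 0.0288% in MoMFs, and those of B and plasma cells (12 genes) at 0.00139% to 0.00215% in Kupffer cells and 0.00377% to 0.0120% in MoMFs, also without overlap. Their part in the results was not tested. The neutrophil, T and natural killer cell, dendritic cell, platelet and endothelial lists overlapped, and Ly6g, Mpo, Cd3d, Cd4 and Cd79a were at 0 in all 8 libraries. Genes at 0 in all 8 were 6 of 14 of neutrophils, 6 of 16 of T and natural killer cells and 4 of 12 of B and plasma cells. Other members had reads, and Ighm of the B and plasma cell list was called lower in Kupffer cells (log2 difference -2.53). The zeros therefore do not show that the libraries were free of these cells.

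Of 7555 genes tested, 369 (4.88%) differed between Kupffer cells and MoMFs at an adjusted p under 0.05: 205 (2.71%) were higher and 164 (2.17%) lower in Kupffer cells. The higher genes included those of resident identity, scavenging, heme and iron handling and lipid transport. The lower ones included those of classical monocytes, matrix and clotting proteins and S100 proteins. The gene lists share members, so their counts are not separate results. Each list count is to be read against the background of 2.71% of genes higher and 2.17% lower. Lists with 1 or 2 calls may not exceed that background, and whether they do was not tested. The log2 difference was over 2 in 89 of the higher genes and under -2 in 65 of the lower ones. The libraries did not overlap between the cell types in 319 of the 369 genes, against 994 (13.2%) of all genes tested. The genes named below as the largest rises and falls were picked among called genes without overlap. For those genes, passing and the lack of overlap follow from the choice and are not separate results. Over all genes the median log2 difference was 0.05. Without Kupffer cell library 2 the test called 235 genes.

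**Figure D1:**
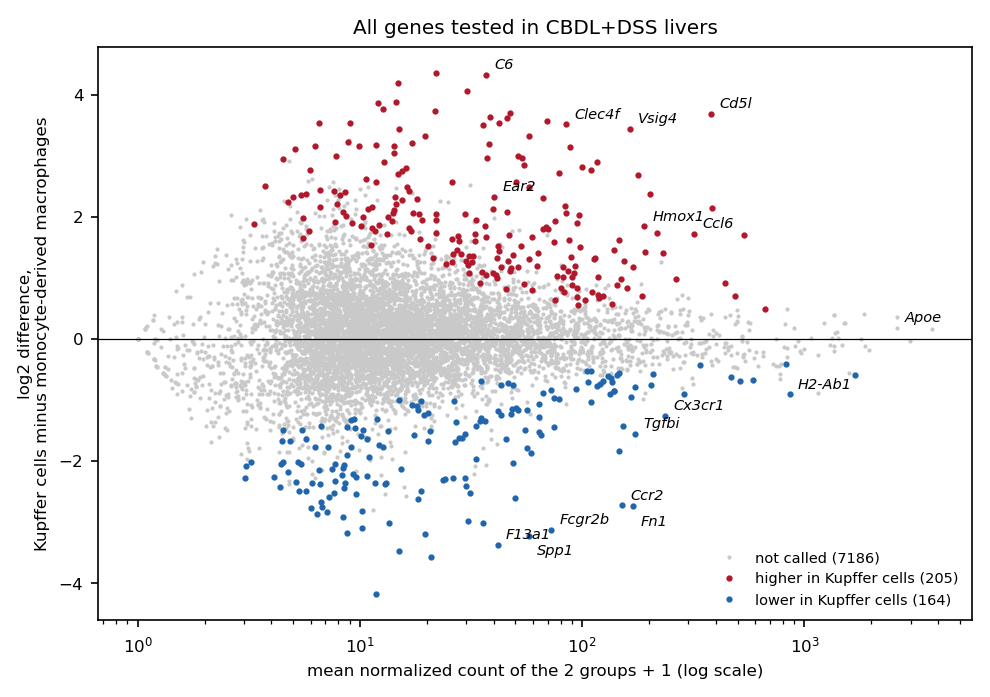
Log2 difference between Kupffer cells and MoMFs of CBDL+DSS livers (y axis) against the mean normalized count of the groups plus 1 (x axis, log scale), with 1 point per gene tested. Red points are the 205 genes higher and blue points the 164 genes lower in Kupffer cells, and grey points, with Apoe among them at high counts, were not called.

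Genes of Kupffer cell identity were the list with the most calls. Of 25 identity genes, all tested, 21 were higher and 0 lower in Kupffer cells, the median log2 difference was 2.81, and all 25 had a positive difference. Clec4f (ENSMUSG00000014542, chr6:83644542-83656187 on GRCm38), a C-type lectin, had 136, 179, 131 and 164 normalized counts in Kupffer cells, against 5.51, 13.3, 28.6 and 10.4 in MoMFs (log2 difference 3.52 ± 0.66, adjusted p = 0.000239). Vsig4 (ENSMUSG00000044206, chrX:96247203-96293438), a receptor for complement C3 fragments, had 269.7, 319, 249 and 347 in Kupffer cells, against 14.7, 28.4, 49.7 and 22.4 in MoMFs (log2 difference 3.44 ± 0.57, adjusted p = 3.23e-05). In both genes every Kupffer cell library lay above every MoMF library, and MoMF library 3 was the highest of its group.

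Timd4 (ENSMUSG00000055546, chr11:46810800-46844332), which binds phosphatidylserine on dying cells, had 62.7, 67.3, 69.9 and 65.1 in Kupffer cells, against 0.919, 9.75, 13.6 and 8.82 in MoMFs (log2 difference 3.19 ± 0.59, adjusted p = 0.00019). Cd5l (ENSMUSG00000015854, chr3:87357881-87371073), a secreted scavenger protein of tissue macrophages, had 534, 808, 748 and 699 in Kupffer cells, against 20.2, 52.3, 84.4 and 84.2 in MoMFs (log2 difference 3.69 ± 0.50, adjusted p = 7.4e-07). C6 (ENSMUSG00000022181, chr15:4727175-4814967), a component of the complement membrane attack complex, had 62.7, 97.2, 70.7 and 46.0 in Kupffer cells, against 1.84, 2.66, 6.03 and 0.802 in MoMFs (log2 difference 4.32 ± 0.59, adjusted p = 9.15e-07). The groups did not overlap in these 3 genes. MoMF library 1 was the lowest of its group in Timd4 and Cd5l, but not in C6.

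Kcna2, a voltage-gated potassium channel, was at 56.0 ± 14.3 in Kupffer cells and 2.63 ± 1.69 in MoMFs. The folate receptor Folr2 was at 69.5 ± 20.3 in Kupffer cells and 5.33 ± 3.06 in MoMFs, and the ficolin Fcna, a lectin that starts the complement cascade, at 128 ± 41.3 in Kupffer cells and 9.83 ± 3.55 in MoMFs. Clec1b, a receptor for podoplanin, was at 75.4 ± 13.0 in Kupffer cells and 7.02 ± 4.60 in MoMFs, and the serpin Serpinb6a at 97.3 ± 35.4 in Kupffer cells and 16.3 ± 17.4 in MoMFs. The log2 difference was 4.06 for Kcna2, 3.64 for Folr2, 3.57 for Fcna, 3.53 for Clec1b and 3.32 for Serpinb6a. All 5 are among the largest rises, so they passed without overlap by the naming rule. Ctla2b, at 84.9 ± 19.6 in Kupffer cells and 7.96 ± 7.03 in MoMFs, is uncertain, since its reads may be split with the near-identical Ctla2a.

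Of 24 lineage-determining transcription factors tested, 2 were higher and 1 lower (backgrounds 2.71% and 2.17%). Nr1h3 (LXR alpha), a nuclear receptor for oxysterols, had 75.9, 93.9, 103 and 101 in Kupffer cells, against 12.9, 10.6, 48.2 and 8.82 in MoMFs (log2 difference 2.49 ± 0.58, adjusted p = 0.00392). MoMF library 3 stood apart from the other MoMFs in Nr1h3 and was still below every Kupffer cell library. Spic, a factor of heme-handling macrophages, was at 20.0 ± 7.51 in Kupffer cells and 4.79 ± 2.84 in MoMFs (log2 difference 2.00 ± 0.51, adjusted p = 0.0102), and without Kupffer cell library 2 or MoMF library 4+5 it no longer passed. Runx3, a Runt family factor, was the lower one, at 1.97 ± 0.301 in Kupffer cells and 13.1 ± 6.52 in MoMFs (log2 difference -2.06 ± 0.41, adjusted p = 0.000643).

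Maf, a factor of mature macrophages, did not pass, with a log2 difference of 0.20 ± 0.22. The identity genes without a call were Id3, at 167 ± 43.1 in Kupffer cells and 134 ± 27.8 in MoMFs (log2 difference 0.30 ± 0.25, adjusted p = 0.638), Id1 (log2 difference 0.38 ± 0.44, adjusted p = 0.76), the mannose receptor Mrc1 (log2 difference 1.26 ± 0.40, adjusted p = 0.0562) and the chemokine Ccl24 (log2 difference 0.93 ± 0.57, adjusted p = 0.475).

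**Figure D2:**
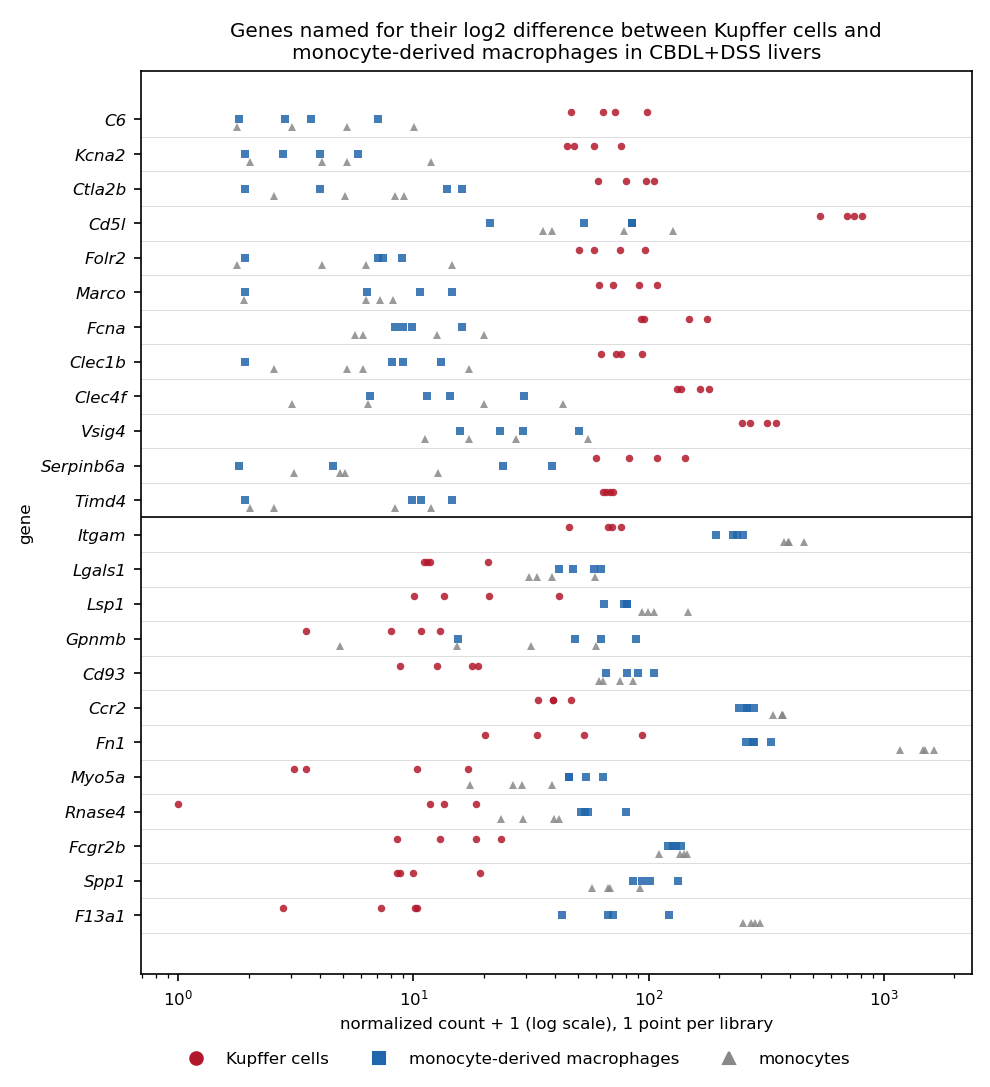
Normalized count plus 1 (x axis, log scale) of the 12 genes with the largest log2 rise and the 12 with the largest fall in Kupffer cells among those taken by the naming rule, with 1 point per CBDL+DSS library. Red circles are Kupffer cells, blue squares MoMFs and grey triangles monocytes, and in each gene the red points lie apart from the blue ones, as the rule required.

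Promoter sequences are shown for genes from both ends of the comparison, since MAF family factors and LXR are known regulators of macrophage identity genes. The windows are the 250 bases upstream of the start in RefSeq on GRCm38.p6, on the strand of the gene, 5′ to 3′. The GENCODE start can lie further upstream. By the GENCODE coordinates in this report, the Fcgr2b window lies inside the gene. The Ccr2 window does so for most of its length and the Clec4f window in part. Capitals mark the letters TGCTGA, the core that MAF factors recognise, and AGGTCA, the core of nuclear receptor elements, on either strand. Cd5l, Fcna, Timd4 and Clec4f were higher in Kupffer cells, and Ccr2 and Fcgr2b lower. The windows shown for the higher genes all hold TGCTGA, so they do not represent the largest rises. Windows of C6, Clec1b, Ctla2b, Kcna2, Marco, Serpinb6a and Vsig4, also among those rises, lack it and are not shown.
Cd5l, chr3:87357631-87357880, plus strand: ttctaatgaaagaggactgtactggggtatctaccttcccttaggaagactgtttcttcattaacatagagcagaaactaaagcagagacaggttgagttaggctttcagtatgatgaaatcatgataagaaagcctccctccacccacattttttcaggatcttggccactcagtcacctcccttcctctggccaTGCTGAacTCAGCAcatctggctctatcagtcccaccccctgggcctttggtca
Fcna, chr2:25627975-25628224, minus strand: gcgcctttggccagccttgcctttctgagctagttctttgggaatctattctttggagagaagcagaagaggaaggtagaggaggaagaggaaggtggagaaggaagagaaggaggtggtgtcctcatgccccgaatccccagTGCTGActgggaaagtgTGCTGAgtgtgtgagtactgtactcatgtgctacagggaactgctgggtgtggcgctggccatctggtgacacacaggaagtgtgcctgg
Timd4, chr11:46810549-46810798, plus strand: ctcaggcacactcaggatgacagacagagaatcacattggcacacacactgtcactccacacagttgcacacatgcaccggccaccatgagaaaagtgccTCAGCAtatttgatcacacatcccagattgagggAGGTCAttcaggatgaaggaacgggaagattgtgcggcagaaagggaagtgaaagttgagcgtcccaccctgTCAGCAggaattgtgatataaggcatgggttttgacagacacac
Clec4f, chr6:83656117-83656366, minus strand: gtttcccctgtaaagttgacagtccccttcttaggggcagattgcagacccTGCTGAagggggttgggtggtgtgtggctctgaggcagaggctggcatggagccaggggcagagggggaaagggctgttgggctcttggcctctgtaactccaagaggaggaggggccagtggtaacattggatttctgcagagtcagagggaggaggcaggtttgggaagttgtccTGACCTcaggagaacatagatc
Ccr2, chr9:124101933-124102182, plus strand: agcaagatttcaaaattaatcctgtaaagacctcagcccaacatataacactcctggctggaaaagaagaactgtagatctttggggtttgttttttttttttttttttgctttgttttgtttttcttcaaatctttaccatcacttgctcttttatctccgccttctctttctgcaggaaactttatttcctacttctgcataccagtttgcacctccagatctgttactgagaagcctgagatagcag
Fcgr2b, chr1:170976072-170976321, minus strand: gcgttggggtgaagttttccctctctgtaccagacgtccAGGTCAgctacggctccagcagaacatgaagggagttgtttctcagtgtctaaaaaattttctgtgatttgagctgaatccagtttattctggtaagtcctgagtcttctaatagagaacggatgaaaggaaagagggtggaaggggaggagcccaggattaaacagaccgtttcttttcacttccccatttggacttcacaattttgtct

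The MAF core TGCTGA was found in 6 of 14 windows (42.9%) of the 12 genes with the largest rises. These were windows of Cd5l, Clec4f, Fcna, Timd4 and Folr2, the last counted with both of its windows. The core was found in 0 of the 11 windows of the largest falls, where 8 of the 12 genes had a window. Among the identity genes, where 19 of 25 had a window, it was in 7 of 21 windows (33.3%). Cd5l, Clec4f, Folr2 and Timd4 count there too, so this share is not a separate observation. Among all 32851 windows, 16.1% held the core. The windows of the falls include those of Ccr2 and Fcgr2b, which lie mostly or wholly inside the GENCODE gene. In Cd5l a pair of these cores faced each other across 2 bases, TGCTGA followed by TCAGCA, an arrangement present in 2 of all windows and looked for after the sequence had been seen. AGGTCA was in 3 windows (21.4%) of the largest rises, 1 (9.09%) of the largest falls and 14.0% of all windows. GAGGAAGT (PU.1), TTGCNNAA (C/EBP) and the interferon-stimulated element were in 0, 0 and 1 windows of the rises, in 1, 2 and 1 windows of the falls, and in 2.44%, 9.56% and 2.98% of all windows. A match describes letters in a window and is not evidence of a site.

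Scavenger receptors were among the genes higher in Kupffer cells. Of 13 tested, 6 were higher and 0 lower, with a median log2 difference of 1.04. Of the genes called, Marco, Cd163 and Cd5l are also on the identity list. Marco, which binds bacteria, had 89.9, 60.7, 108 and 69.8 in Kupffer cells, against 0.919, 5.32, 13.6 and 9.62 in MoMFs (log2 difference 3.62 ± 0.64, adjusted p = 8.33e-05). Cd163, the receptor for hemoglobin bound to haptoglobin, had 155, 200.2, 110.3 and 230.4 in Kupffer cells, against 20.2, 22.2, 40.7 and 15.2 in MoMFs (log2 difference 2.81 ± 0.58, adjusted p = 0.000934). Neither gene overlapped between the groups, and MoMF library 3 was the highest of its group in both.

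The hyaluronan receptor Stab2 was at 14.6 ± 1.82 in Kupffer cells and 3.50 ± 1.58 in MoMFs (log2 difference 1.86 ± 0.52, adjusted p = 0.0231). It is also an endothelial marker, and its call was lost in 6 of 16 alternatives, among them those without Kupffer cell library 2 or 6 or MoMF library 1 or 3. The other calls were Cd5l, the lipoprotein receptor Scarb1 (log2 difference 1.08 ± 0.30, adjusted p = 0.0252) and the lysosomal Scarb2 (log2 difference 1.04 ± 0.32, adjusted p = 0.0472). Without MoMF library 1 or Kupffer cell library 2 or 6, 3 scavenger receptors were called.

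Heme and iron handling gave 5 higher and 0 lower of 16 genes (median 0.83). Slc40a1, Cd163 and Spic among the calls are also identity genes. Hmox1, which opens the heme ring, had 201, 296, 358 and 324 in Kupffer cells, against 54.2, 102, 98.0 and 73.8 in MoMFs (log2 difference 1.84 ± 0.30, adjusted p = 3.08e-05). Slc40a1, the iron exporter ferroportin, had 268, 359.8, 402 and 304 in Kupffer cells, against 34.9, 82.4, 82.9 and 64.9 in MoMFs (log2 difference 2.37 ± 0.56, adjusted p = 0.00459). All Kupffer cell libraries exceeded all MoMF libraries in both genes, and MoMF library 1 was the lowest. Ncoa4, which sends ferritin for breakdown, was at 111 ± 32.5 in Kupffer cells and 36.5 ± 13.6 in MoMFs (log2 difference 1.59 ± 0.41, adjusted p = 0.0102). The ferritin chains did not pass: Fth1 was at 1277 ± 199 in Kupffer cells and 1884 ± 265 in MoMFs (log2 difference -0.56 ± 0.28, adjusted p = 0.309), and Ftl1, uncertain because of near-identical pseudogenes, at 1792 ± 60.7 in Kupffer cells and 1796 ± 221 in MoMFs (log2 difference 0.01 ± 0.15, adjusted p = 0.996).

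Among 14 LXR target genes, which serve cholesterol and lipoprotein handling, 5 were higher and 0 lower (median 0.51). Nr1h3 among the calls is also an identity gene. Apoc1, a small apolipoprotein, had 78.0, 84.7, 101 and 112 in Kupffer cells, against 7.35, 13.3, 16.6 and 8.82 in MoMFs (log2 difference 2.97 ± 0.60, adjusted p = 0.000682), without overlap. Scd1, a fatty acid desaturase, was at 25.1 ± 6.25 in Kupffer cells and 3.82 ± 2.98 in MoMFs (log2 difference 2.76 ± 0.64, adjusted p = 0.00413), and it did not pass without MoMF library 1. The phosphodiesterase Smpdl3a was at 112 ± 16.3 in Kupffer cells and 50.4 ± 17.2 in MoMFs (log2 difference 1.18 ± 0.25, adjusted p = 0.00155) and the phospholipid transfer protein Pltp at 136 ± 12.1 in Kupffer cells and 29.4 ± 5.19 in MoMFs (log2 difference 2.18 ± 0.60, adjusted p = 0.0205), with Nr1h3 as the remaining call. The cholesterol exporters Abca1, at 56.1 ± 4.48 in Kupffer cells and 46.0 ± 8.07 in MoMFs, and Abcg1, at 36.1 ± 2.69 in Kupffer cells and 26.0 ± 4.76 in MoMFs, did not pass. Lpl, lipoprotein lipase, was at 219 ± 64.9 in Kupffer cells and 88.0 ± 17.4 in MoMFs (log2 difference 1.28 ± 0.31, adjusted p = 0.00629). Hepatocyte transcripts were also higher in the Kupffer cell libraries, as given above, and their part in the Apoc1 value was not tested.

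Complement genes went both ways. Of 16 tested, C6, Vsig4, C4b, Cfb and Cfp were higher in Kupffer cells and Cd93 was lower (median 0.42). C6 and Vsig4 are identity genes as well. Cfp, properdin, which stabilises the alternative pathway convertase, was at 88.9 ± 15.2 in Kupffer cells and 27.7 ± 7.24 in MoMFs (log2 difference 1.67 ± 0.36, adjusted p = 0.00152), and Cfb, factor B of the same pathway, at 67.9 ± 15.0 in Kupffer cells and 21.6 ± 15.1 in MoMFs (log2 difference 2.09 ± 0.63, adjusted p = 0.0403). C4b was at 33.8 ± 10.8 in Kupffer cells and 3.35 ± 3.35 in MoMFs (log2 difference 3.32 ± 0.70, adjusted p = 0.00126), and its near-identical copy C4a makes that value uncertain. Cd93, a lectin-like receptor, had 16.7, 11.6, 17.9 and 7.76 in Kupffer cells, against 89.1, 79.8, 104 and 64.9 in MoMFs (log2 difference -2.60 ± 0.33, adjusted p = 2.39e-07), with the Kupffer cell libraries below all others.

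Of 18 genes that tissue macrophages share, 1 was higher and 1 lower in Kupffer cells, with a median log2 difference of 0.43. The difference was positive in 15 of the 18, the groups did not overlap in 12, and 8 had an unadjusted p under 0.05. Over all 7555 genes tested, 13.2% did not overlap and 1162 had an unadjusted p under 0.05. DESeq2 called 3 of them higher and 1 lower, and limma on the 8 libraries alone 6 higher and 2 lower. Apoe, an apolipoprotein abundant in macrophages, had 2568, 2813, 2394 and 3196 in Kupffer cells, against 3262, 2536, 2011 and 1987 in MoMFs (log2 difference 0.19 ± 0.23, adjusted p = 0.781). C1qa, a chain of the first complement component chosen after its values were seen, had 228, 256, 271 and 243 in Kupffer cells, against 152, 199, 217 and 187 in MoMFs (log2 difference 0.41 ± 0.36, adjusted p = 0.658). The groups overlapped in Apoe, where MoMF library 1 was the highest of all 8, and lay just apart in C1qa, and neither gene passed. C1qb and C1qc did not pass either, with log2 differences of 0.44 ± 0.40 and 0.71 ± 0.41. Mertk, an efferocytosis receptor kinase, was the gene higher, at 159 ± 19.6 in Kupffer cells and 64.5 ± 12.7 in MoMFs (log2 difference 1.31 ± 0.33, adjusted p = 0.00974).

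Of 20 classical monocyte genes, 10 were lower and 1 higher in Kupffer cells, with a median log2 difference of -1.44. Ccr2 (ENSMUSG00000049103, chr9:124101950-124113557), which draws monocytes out of bone marrow and into injured tissue, had 38.3, 45.7, 38.1 and 32.8 in Kupffer cells, against 242, 262, 279 and 261 in MoMFs (log2 difference -2.73 ± 0.23, adjusted p = 2.84e-12). Itgam, the integrin chain CD11b, had 69.0, 44.9, 66.0 and 75.2 in Kupffer cells, against 238, 251, 193 and 227 in MoMFs (log2 difference -1.84 ± 0.24, adjusted p = 3.05e-07). Both genes separated the groups, and Ccr2 varied little within either of them. Monocytes of the same injury held 362 ± 15.4 of Ccr2 and 405 ± 37.1 of Itgam.

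Ly6c2, the marker of inflammatory monocytes, had 0.697, 0.831, 1.55 and 1.19 in Kupffer cells, against 2.76, 8.86, 10.6 and 1.60 in MoMFs (log2 difference -1.50 ± 0.47, adjusted p = 0.0486), and was at 85.1 ± 7.77 in monocytes. Both macrophage groups were low, the call was lost in 10 of 15 alternatives, among them those without any 1 Kupffer cell library or MoMF library 2 or 3, and reads may be split with the near-identical Ly6c1. Ifitm6, an interferon-induced transmembrane protein of monocytes, was the member higher in Kupffer cells, with 31.4, 26.6, 31.9 and 27.5 in Kupffer cells, against 12.9, 7.98, 13.6 and 10.4 in MoMFs (log2 difference 1.33 ± 0.33, adjusted p = 0.00716). Plac8, another monocyte gene, had 79.4, 45.7, 38.9 and 16.7 in Kupffer cells, against 22.1, 32.8, 42.2 and 36.9 in MoMFs, and did not pass (log2 difference 0.26 ± 0.39, adjusted p = 0.82). Cx3cr1, the fractalkine receptor, had 141, 133, 133 and 139.7 in Kupffer cells, against 311, 399.7, 267 and 349 in MoMFs, without overlap (log2 difference -1.26 ± 0.31, adjusted p = 0.00646).

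S100 proteins and annexins, which bind calcium, gave 4 lower and 0 higher of 15 tested (median -0.25). S100a4 and S100a6 are also on the classical monocyte list. S100a11 had 0, 1.66, 0.777 and 2.98 in Kupffer cells, against 18.4, 12.4, 22.6 and 15.2 in MoMFs (log2 difference -3.09 ± 0.44, adjusted p = 2.09e-06). S100a4 was at 8.81 ± 2.91 in Kupffer cells and 48.5 ± 18.7 in MoMFs (log2 difference -2.28 ± 0.33, adjusted p = 2.41e-06) and S100a6 at 27.9 ± 7.20 in Kupffer cells and 81.0 ± 19.6 in MoMFs (log2 difference -1.50 ± 0.29, adjusted p = 0.000292). Anxa1, which restrains leukocyte entry, was at 6.93 ± 2.02 in Kupffer cells and 38.1 ± 9.26 in MoMFs (log2 difference -2.31 ± 0.43, adjusted p = 0.00019). None of these 4 genes overlapped between the groups.

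Matrix and clotting proteins gave 5 lower and 0 higher of 17 tested, with a median log2 difference of -1.28. Fn1, F13a1 and Thbs1 are classical monocyte genes as well. Fn1 (ENSMUSG00000026193, chr1:71585520-71653200), fibronectin, had 52.3, 32.4, 92.5 and 19.1 in Kupffer cells, against 259, 331, 279 and 277 in MoMFs (log2 difference -2.74 ± 0.46, adjusted p = 5.27e-05). F13a1 (ENSMUSG00000039109, chr13:36867178-37050244), the factor XIII chain that crosslinks fibrin, had 6.27, 9.14, 9.32 and 1.79 in Kupffer cells, against 121, 66.5, 69.3 and 41.7 in MoMFs (log2 difference -3.38 ± 0.53, adjusted p = 1.47e-05). Spp1 (ENSMUSG00000029304, chr5:104435118-104441050), osteopontin, had 18.1, 7.48, 7.77 and 8.95 in Kupffer cells, against 92.8, 85.1, 133 and 100.2 in MoMFs (log2 difference -3.23 ± 0.59, adjusted p = 0.000153). In all 3 the groups were apart, and Kupffer cell library 6 was the lowest of its group in Fn1 and F13a1.

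Monocytes held 1447 ± 197 of Fn1, 275 ± 19.7 of F13a1 and 70.3 ± 14.7 of Spp1. Tgfbi, an extracellular adaptor protein, was at 85.9 ± 14.0 in Kupffer cells and 257 ± 56.5 in MoMFs (log2 difference -1.56 ± 0.23, adjusted p = 3.82e-06). Thbs1, thrombospondin, was at 0.995 ± 1.32 in Kupffer cells and 10.4 ± 4.41 in MoMFs (log2 difference -2.67 ± 0.50, adjusted p = 0.000225).

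Of 17 genes of lipid- and scar-associated macrophages, Spp1 and Gpnmb were lower and Lpl was higher (median -0.13). Gpnmb, a glycoprotein of lipid-laden macrophages, had 9.75, 2.49, 6.99 and 11.9 in Kupffer cells, against 87.3, 47.9, 61.8 and 14.4 in MoMFs (log2 difference -2.52 ± 0.65, adjusted p = 0.0103), and without MoMF library 1 or Kupffer cell library 2 it no longer passed. Trem2, a lipid-sensing receptor, had 20.2, 9.97, 8.55 and 26.3 in Kupffer cells, against 54.2, 54.9, 55.8 and 47.3 in MoMFs, and missed the threshold (log2 difference -1.78 ± 0.56, adjusted p = 0.0528) but passed in 6 of 16 alternatives. Cd63, a tetraspanin of lysosomes, had 171, 229, 228 and 193 in Kupffer cells, against 354, 396, 332 and 348 in MoMFs, and did not pass (log2 difference -0.80 ± 0.50, adjusted p = 0.482). In all 3 genes the Kupffer cell libraries lay below the MoMF libraries without overlap.

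The remaining genes named among the lower ones are of several kinds. Fcgr2b (ENSMUSG00000026656, chr1:170958617-170976547), the inhibitory IgG receptor, had 17.4, 7.48, 22.5 and 11.9 in Kupffer cells, against 120.4, 136, 127 and 129.9 in MoMFs (log2 difference -3.13 ± 0.41, adjusted p = 3.63e-07). Sinusoidal endothelium also expresses Fcgr2b, and the 17 endothelial markers took 0.0322% to 0.0619% of the reads in Kupffer cells and 0.0503% to 0.110% in MoMFs, with overlap. Monocytes, with an endothelial share of 0.0703% to 0.0953%, held 133 ± 15.6 of Fcgr2b, and the part of endothelial RNA in the difference was not tested. Of those markers Stab2, Cdh5 and Pecam1 were higher in Kupffer cells, with Cdh5, an endothelial cadherin also reported in Kupffer cells, at 26.9 ± 5.38 in Kupffer cells and 3.23 ± 1.90 in MoMFs (log2 difference 2.79 ± 0.49, adjusted p = 8.22e-05). The 17 markers held 3 higher and 1 lower call, against 1 higher and 3 lower without MoMF library 1, 1 higher and 1 lower without Kupffer cell library 2, and 2 of each without Kupffer cell library 4+5.

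Myo5a, an unconventional myosin, was at 7.51 ± 6.63 in Kupffer cells and 51.6 ± 8.71 in MoMFs (log2 difference -2.98 ± 0.52, adjusted p = 8.33e-05), and Lsp1, an actin-binding leukocyte protein, at 20.5 ± 14.1 in Kupffer cells and 75.3 ± 8.02 in MoMFs (log2 difference -2.04 ± 0.42, adjusted p = 0.000973). The galectin Lgals1 was at 12.8 ± 4.63 in Kupffer cells and 51.6 ± 9.67 in MoMFs (log2 difference -1.97 ± 0.48, adjusted p = 0.00682) and the ribonuclease Rnase4 at 10.2 ± 7.36 in Kupffer cells and 59.2 ± 13.3 in MoMFs (log2 difference -3.01 ± 0.58, adjusted p = 0.000361). Itga6, an integrin chain of laminin receptors, had 6.97, 0.831, 0.777 and 0 in Kupffer cells, against 24.8, 42.5, 22.6 and 13.6 in MoMFs (log2 difference -3.47 ± 0.74, adjusted p = 0.00131). These 5 genes did not overlap, as the naming rule required of those among the largest falls. Kupffer cell library 1+3 held most of the Itga6 of its group. Of 19 adhesion genes, Itga9, Vcam1 and Pecam1 were higher, and Itga6, Itgam and Jaml lower (backgrounds 2.71% and 2.17%). Vcam1, an adhesion molecule of resident macrophages, was at 119 ± 27.4 in Kupffer cells and 30.0 ± 3.01 in MoMFs (log2 difference 1.93 ± 0.51, adjusted p = 0.0143), and without Kupffer cell library 6 it did not pass, while without MoMF library 1 or Kupffer cell library 2 the list held 1 higher gene.

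**Figure D3:**
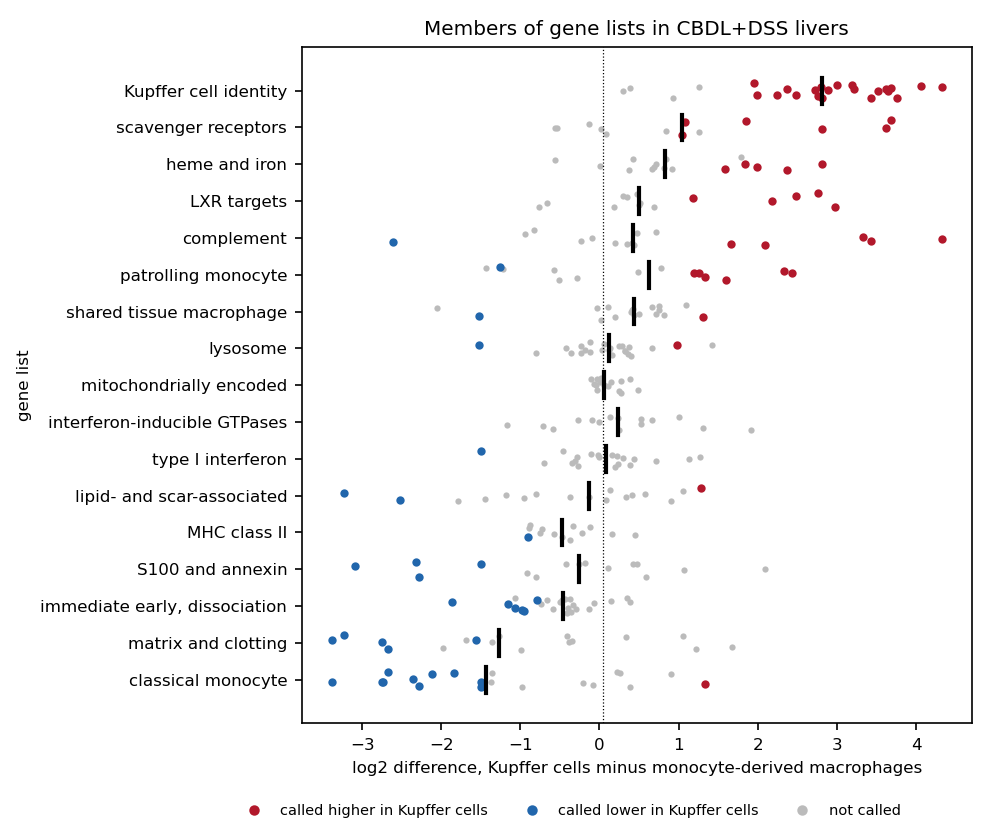
Log2 difference between Kupffer cells and MoMFs (x axis) of each tested member of 17 gene lists (y axis) in CBDL+DSS livers, with black bars at the list medians and a dotted line at the median of all genes. Red points were called higher and blue points lower in Kupffer cells; most points of the identity list are red, and most of the shared macrophage, lysosome and mitochondrial lists are grey.

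Genes known from patrolling (Ly6C-low) monocytes gave 6 higher and 1 lower, Cx3cr1, of 14 tested (median 0.63). Ear2 (ENSMUSG00000072596), an eosinophil-type ribonuclease, had 41.1, 70.6, 55.9 and 91.3 in Kupffer cells, against 3.68, 14.2, 24.1 and 12.8 in MoMFs (log2 difference 2.33 ± 0.36, adjusted p = 9.69e-06), and near-identical Ear genes make its level uncertain. Treml4, a TREM-like receptor, had 36.9, 50.7, 36.5 and 39.4 in Kupffer cells, against 10.1, 17.7, 15.1 and 9.62 in MoMFs (log2 difference 1.60 ± 0.35, adjusted p = 0.00217). MoMF library 1 was the lowest of its group in Ear2, and the groups were apart in both genes.

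The receptors Cd300ld, at 125 ± 26.7 in Kupffer cells and 51.1 ± 21.2 in MoMFs (log2 difference 1.34 ± 0.28, adjusted p = 0.000973), and Cd300e, at 25.9 ± 12.5 in Kupffer cells and 5.22 ± 3.79 in MoMFs (log2 difference 2.43 ± 0.59, adjusted p = 0.00594), were higher as well. The adhesion receptor Adgre4 was at 42.5 ± 6.45 in Kupffer cells and 19.3 ± 9.29 in MoMFs (log2 difference 1.25 ± 0.29, adjusted p = 0.00363), a call lost without MoMF library 1, and the G protein subunit Gngt2 at 129.8 ± 46.6 in Kupffer cells and 53.3 ± 7.84 in MoMFs (log2 difference 1.20 ± 0.31, adjusted p = 0.0114). None of the 6 overlapped between the groups. Nr4a1, the factor on which patrolling monocytes depend, did not pass, at 71.1 ± 50.8 in Kupffer cells and 86.4 ± 3.88 in MoMFs (log2 difference -0.51 ± 0.32, adjusted p = 0.482), nor did Spn (CD43), at 2.38 ± 1.53 in Kupffer cells and 7.22 ± 4.09 in MoMFs (log2 difference -1.22 ± 0.50, adjusted p = 0.174). The list took 0.309% to 0.367% of the reads in Kupffer cells and 0.270% to 0.327% in MoMFs, with overlap.

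Of 16 inflammatory genes, Tnfaip2 was higher and Osm, Ptgs2 and Clec4e were lower in Kupffer cells (median -0.18). The Clec4e call was lost in 7 of 16 alternatives, among them those without Kupffer cell library 2, 4+5 or 6 or MoMF library 1 or 3. Without 1 library, 2 to 4 genes of the list were lower. Osm, the cytokine oncostatin M, was at 1.68 ± 1.25 in Kupffer cells and 16.9 ± 6.96 in MoMFs (log2 difference -2.81 ± 0.44, adjusted p = 1.2e-05). Ptgs2, cyclooxygenase 2, was at 1.65 ± 1.32 in Kupffer cells and 11.7 ± 4.00 in MoMFs (log2 difference -2.33 ± 0.44, adjusted p = 0.000244). Tnfaip2, a gene induced by tumor necrosis factor, was at 129.7 ± 8.11 in Kupffer cells and 42.3 ± 9.52 in MoMFs (log2 difference 1.62 ± 0.34, adjusted p = 0.00137). The cytokines Il1b (log2 difference -0.89 ± 0.29, adjusted p = 0.0602) and Tnf (log2 difference -1.42 ± 0.62, adjusted p = 0.222) did not pass and overlapped between the groups.

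Of 16 chemokines, 1 was higher and 1 lower (backgrounds 2.71% and 2.17%). Ccl6 had 415, 499, 401 and 642 in Kupffer cells, against 135, 152, 140.2 and 153 in MoMFs (log2 difference 1.72 ± 0.19, adjusted p = 6.6e-09). Ccl3, a ligand of Ccr1, had 25.1, 12.5, 14.8 and 36.4 in Kupffer cells, against 84.6, 54.1, 79.9 and 49.7 in MoMFs (log2 difference -1.64 ± 0.36, adjusted p = 0.00191). Neither overlapped, and Ccl6 was even across the 4 MoMF libraries. Of 12 chemotaxis receptors, Fpr1 and Fpr2 were higher and Ccr2 and Cx3cr1 lower (backgrounds 2.71% and 2.17%). Fpr1, a receptor for bacterial formyl peptides, was at 46.4 ± 7.39 in Kupffer cells and 10.9 ± 3.71 in MoMFs (log2 difference 2.04 ± 0.42, adjusted p = 0.000859), and the Fpr2 call was lost in 8 of 16 alternatives, among them those without Kupffer cell library 1+3, 2 or 4+5 or MoMF library 1, 2 or 3.

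Of 19 lectins, Clec4f, Clec1b and Cd207 were higher and Mgl2, Clec4e, Clec7a and Clec4a2 lower (median -0.47). The limit of the Clec4e call is given above. Cd207, langerin, was at 188 ± 26.0 in Kupffer cells and 29.2 ± 15.4 in MoMFs (log2 difference 2.77 ± 0.48, adjusted p = 7.86e-05). Mgl2, a galactose-binding lectin, was at 0.498 ± 0.66 in Kupffer cells and 7.84 ± 5.19 in MoMFs (log2 difference -2.34 ± 0.58, adjusted p = 0.00774), with overlap, and did not pass without MoMF library 2. Without that library or Kupffer cell library 4+5, 1 lectin was called lower, and without MoMF library 3, 2 were. Of 13 MHC class II genes H2-Ab1 passed, at 593 ± 106 in Kupffer cells and 1122 ± 249 in MoMFs (log2 difference -0.91 ± 0.26, adjusted p = 0.0234), and that call was lost in 5 of 16 alternatives, among them those without Kupffer cell library 4+5 or 6 or MoMF library 2 or 3. In 6 other alternatives, edgeR and DESeq2 among them, 3 class II genes were lower. Hpgd, which inactivates prostaglandins, was at 33.6 ± 5.94 in Kupffer cells and 8.50 ± 4.44 in MoMFs (log2 difference 1.95 ± 0.47, adjusted p = 0.00536).

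Type I interferon genes gave 0 higher and 1 lower of 20 tested (median 0.08), and that call, Ifi209, was lost in 9 of 15 alternatives, among them those without Kupffer cell library 1+3 or 6 or MoMF library 3 or 4+5. An unadjusted p under 0.05 was found in 1162 of all 7555 genes tested. Interferon-inducible GTPases gave 0 calls of 15 by limma, with 1 gene at an unadjusted p under 0.05 and 1 call each by edgeR and DESeq2. Endotoxin sensing genes gave 0 calls of 16 by limma, with 3 genes at an unadjusted p under 0.05, 0 calls by edgeR and 1 by DESeq2. Glycolytic enzymes gave 0 of 17 by limma, by unadjusted p and by both other tools, and growth factor and cytokine receptors 0 of 24 by limma, with 7 at an unadjusted p under 0.05, 1 by edgeR and 2 by DESeq2. Among 14 hypoxia targets, Hilpda, a lipid droplet protein, was at 51.8 ± 21.4 in Kupffer cells and 12.6 ± 5.62 in MoMFs (log2 difference 1.96 ± 0.41, adjusted p = 0.00111).

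Immediate early genes, which tissue dissociation can induce, gave 6 lower and 0 higher of 24 (median -0.46). Their summed share overlapped, at 0.576% to 1.22% of the reads in Kupffer cells and 0.915% to 1.23% in MoMFs. Atf3, a stress-induced factor, had 22.3, 6.65, 18.6 and 78.2 in Kupffer cells, against 88.2, 69.1, 107 and 71.4 in MoMFs (log2 difference -1.87 ± 0.41, adjusted p = 0.00206), with Kupffer cell library 6 inside the range of the MoMFs. Without Kupffer cell library 2, 0 genes of this list were called and Atf3 did not pass, and without Kupffer cell library 4+5 or MoMF library 1 or 3, 1 or 2 were. Ribosomal protein genes took 9.29% to 11.7% of the reads in Kupffer cells and 12.4% to 13.9% in MoMFs, without overlap. Of 77 of them, 8 were lower and 0 higher (median -0.28), while 4 or 5 were lower without MoMF library 3 or Kupffer cell library 2 and 14 by DESeq2 or from the 8 libraries alone. The 15 mitochondrially encoded genes gave 0 calls by limma, edgeR and DESeq2, with 1 at an unadjusted p under 0.05, and 2 higher calls from the 8 libraries alone.

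The same cell types were set side by side in the other injury groups, which share no library with CBDL+DSS. Kupffer cells and MoMFs differed in 369 genes (4.88%) in CBDL+DSS, 730 (9.66%) in CBDL6w, 1019 (13.5%) in DSS and 1204 (15.9%) in Sham6w. The median absolute log2 difference over all genes was 0.41 in CBDL+DSS, 0.49 in CBDL6w, 0.48 in DSS and 0.62 in Sham6w. Noise widens this value, and depth differed between the groups. Kupffer cell libraries held 359823 to 512401 reads in CBDL+DSS, 228741 to 327143 in CBDL6w, 236874 to 326416 in DSS and 285086 to 521954 in Sham6w. The 3 MoMF libraries of Sham6w held 118687 to 294183. The smaller value in CBDL+DSS therefore does not show that the cell types were more alike there. Of the 205 genes higher in CBDL+DSS, 102 (49.8%) were also called higher in CBDL6w, 106 (51.7%) in DSS and 105 (51.2%) in Sham6w, which are 25.3%, 22.3% and 15.3% of the genes called higher there. Of the 164 lower genes, 78 (47.6%), 87 (53.0%) and 96 (58.5%) were also lower in CBDL6w, DSS and Sham6w, or 23.9%, 16.0% and 18.6% of the genes lower there. Over all genes tested, 5.33%, 6.29% and 9.11% were called higher in CBDL6w, DSS and Sham6w, and 4.33%, 7.2% and 6.83% lower. In all 4 groups, 61 genes (29.8% of the 205) were higher and 49 (29.9% of the 164) lower.

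Whether the difference between the cell types had another size in CBDL+DSS was tested as an interaction, the difference in CBDL+DSS minus that in the other group. Against CBDL6w it passed in 34 genes (0.45%), against DSS in 137 (1.81%) and against Sham6w in 150 (1.99%). Against DSS, 105 of the 137 were shifted upward, that is towards Kupffer cells. Against CBDL6w, 21 genes passed without MoMF library 4+5 of CBDL+DSS. Against Sham6w, 82 passed without MoMF library 1+2+5 of Sham6w, 296 without its library 3 and 236 without its library 4+6.

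Of the 25 identity genes, 0 passed the interaction against CBDL6w, with 0 at an unadjusted p under 0.05 and 0 by edgeR or DESeq2. Against Sham6w 0 passed by limma, with 4 at an unadjusted p under 0.05, 0 by edgeR and 3 by DESeq2. Of all 7555 genes tested, 726 had an unadjusted p under 0.05 against CBDL6w and 1095 against Sham6w. Against DSS Cd207 was shifted upward (interaction 2.57 ± 0.68, adjusted p = 0.0308) and Ccl24 downward (interaction -2.98 ± 0.81, adjusted p = 0.0373). For Clec4f the difference between the cell types was 3.52 ± 0.66 in CBDL+DSS, 2.34 ± 0.66 in CBDL6w, 4.16 ± 0.66 in DSS and 2.72 ± 0.71 in Sham6w. For Ccr2 it was -2.73 ± 0.23 in CBDL+DSS, -1.53 ± 0.23 in CBDL6w, -2.73 ± 0.23 in DSS and -2.01 ± 0.25 in Sham6w. Clec4f and Ccr2 kept their direction in the 4 groups.

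The genes shared by tissue macrophages gave 1 higher call of 18 in CBDL+DSS (background 2.71%), against 14 in CBDL6w (5.33%), 11 in DSS (6.29%) and 15 in Sham6w (9.11%), all by limma over the 58 libraries; the count in CBDL+DSS was 3 by DESeq2 and 6 from its 8 libraries alone. Their median interaction was -1.15 against CBDL6w, -0.86 against DSS and -1.40 against Sham6w, where the median of all genes was 0.04, 0.01 and -0.06. By the test of the interaction itself 1, 1 and 5 of them were shifted downward (backgrounds 0.238%, 0.424% and 1.01%). In either direction, DESeq2 called 7 against CBDL6w, 6 against DSS and 7 against Sham6w, and edgeR called 1, 1 and 3. An unadjusted p under 0.05 was found in 13, 8 and 13 of them, against 726, 887 and 1095 of all 7555 genes tested.

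Apoe in CBDL6w had 3042, 2824, 2861 and 2645 in Kupffer cells, against 469, 344, 425 and 414 in MoMFs. Its mean in MoMFs was 2449 ± 598 in CBDL+DSS, 413 ± 51.7 in CBDL6w, 178 ± 22.3 in DSS and 488 ± 151 (n = 3) in Sham6w, and its mean in Kupffer cells was 2743 ± 347 in CBDL+DSS, 2843 ± 163 in CBDL6w, 546 ± 150.1 in DSS and 2155 ± 438 in Sham6w. The cell types overlapped in CBDL+DSS and were apart in the other 3 groups. The interaction was -2.60 ± 0.33 against CBDL6w (adjusted p = 8.96e-07), -1.40 ± 0.33 against DSS (adjusted p = 0.0115) and -1.98 ± 0.35 against Sham6w (adjusted p = 0.00045).

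Selenop, a selenium transport protein, was at 409 ± 49.2 in Kupffer cells and 368 ± 37.1 in MoMFs of CBDL+DSS, and at 363 ± 30.4 in Kupffer cells and 105 ± 39.2 in MoMFs of CBDL6w (interaction -1.70 ± 0.32, adjusted p = 0.00227). C1qa stood at 249 ± 18.5 in Kupffer cells and 189 ± 27.7 in MoMFs of CBDL+DSS, and at 216 ± 14.6 in Kupffer cells and 32.8 ± 11.8 in MoMFs of DSS (interaction -2.34 ± 0.50, adjusted p = 0.0051), while it did not pass against CBDL6w (adjusted p = 0.203) or Sham6w (adjusted p = 0.0763). Dab2, an endocytic adaptor, was at 148 ± 10.6 in Kupffer cells and 172 ± 55.1 in MoMFs of CBDL+DSS, and at 266 ± 36.3 in Kupffer cells and 46.9 ± 21.9 in MoMFs (n = 3) of Sham6w (interaction -2.76 ± 0.48, adjusted p = 0.00045). MoMFs of CBDL+DSS had a higher mean than those of CBDL6w in Selenop, of DSS in C1qa and of Sham6w in Dab2. In DSS, Selenop was higher in MoMFs without overlap, with 222, 228, 239 and 237 in Kupffer cells, against 353, 315, 242 and 286 in MoMFs.

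Cd63 and Trem2 had the largest downward interactions against CBDL6w among the genes named by the rule. Cd63 in CBDL6w had 97.8, 258, 137 and 283 in Kupffer cells, against 8.58, 28.6, 22.4 and 74.9 in MoMFs (interaction -3.54 ± 0.71, adjusted p = 0.00472). Trem2 in CBDL6w had 37.0, 23.3, 28.8 and 19.2 in Kupffer cells, against 6.01, 6.03, 2.40 and 5.69 in MoMFs (interaction -4.02 ± 0.80, adjusted p = 0.00472). Both were higher in Kupffer cells of CBDL6w, with own log2 differences of 2.74 ± 0.50 for Cd63 (adjusted p = 9.81e-05) and 2.24 ± 0.56 for Trem2 (adjusted p = 0.0056), against -0.80 ± 0.50 and -1.78 ± 0.56 in CBDL+DSS. Cd93 was shifted the same way (interaction -2.77 ± 0.47, adjusted p = 0.000375). The platelet chemokine Pf4, also made by macrophages, was too (interaction -3.12 ± 0.73, adjusted p = 0.0282), but lost its call in 9 of 23 alternatives, among them those without MoMF library 1 or Kupffer cell library 2 or 4+5 of CBDL+DSS.

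Ifitm6, Plac8 and Ear2 were shifted upward against CBDL6w. Ifitm6 was at 29.3 ± 2.68 in Kupffer cells and 11.2 ± 2.54 in MoMFs of CBDL+DSS, and at 23.9 ± 18.1 in Kupffer cells and 104 ± 28.6 in MoMFs of CBDL6w (interaction 3.80 ± 0.47, adjusted p = 6.26e-07). Plac8 in CBDL6w had 5.29, 7.17, 39.4 and 26.7 in Kupffer cells, against 130.5, 256, 160.5 and 195 in MoMFs (interaction 3.81 ± 0.55, adjusted p = 1.91e-05). Ear2 in CBDL6w had 29.1, 43.9, 51.8 and 50.1 in Kupffer cells, against 62.7, 40.7, 43.9 and 37.9 in MoMFs (interaction 2.42 ± 0.51, adjusted p = 0.00705). In CBDL6w the cell types were apart in Plac8, with MoMFs higher, and overlapped in Ear2, the reverse of CBDL+DSS.

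Ear2 was also shifted upward against DSS (interaction 2.64 ± 0.51, adjusted p = 0.00176) and Sham6w (interaction 2.57 ± 0.53, adjusted p = 0.00317). Its level in MoMFs was 13.7 ± 8.37 in CBDL+DSS, 46.3 ± 11.2 in CBDL6w, 41.9 ± 6.30 in DSS and 48.7 ± 16.0 (n = 3) in Sham6w. Of 14 patrolling monocyte genes, 2 were shifted upward against CBDL6w, 6 against DSS and 4 against Sham6w (backgrounds 0.212%, 1.39% and 0.979%), with 0 shifted downward. Against CBDL6w edgeR called 5 of them and DESeq2 4. In Kupffer cells 0 of them were higher and 5 lower in CBDL6w (backgrounds 5.33% and 4.33%), 0 higher and 7 lower in DSS (6.29% and 7.2%), and 1 higher and 6 lower in Sham6w (9.11% and 6.83%).

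**Figure D4:**
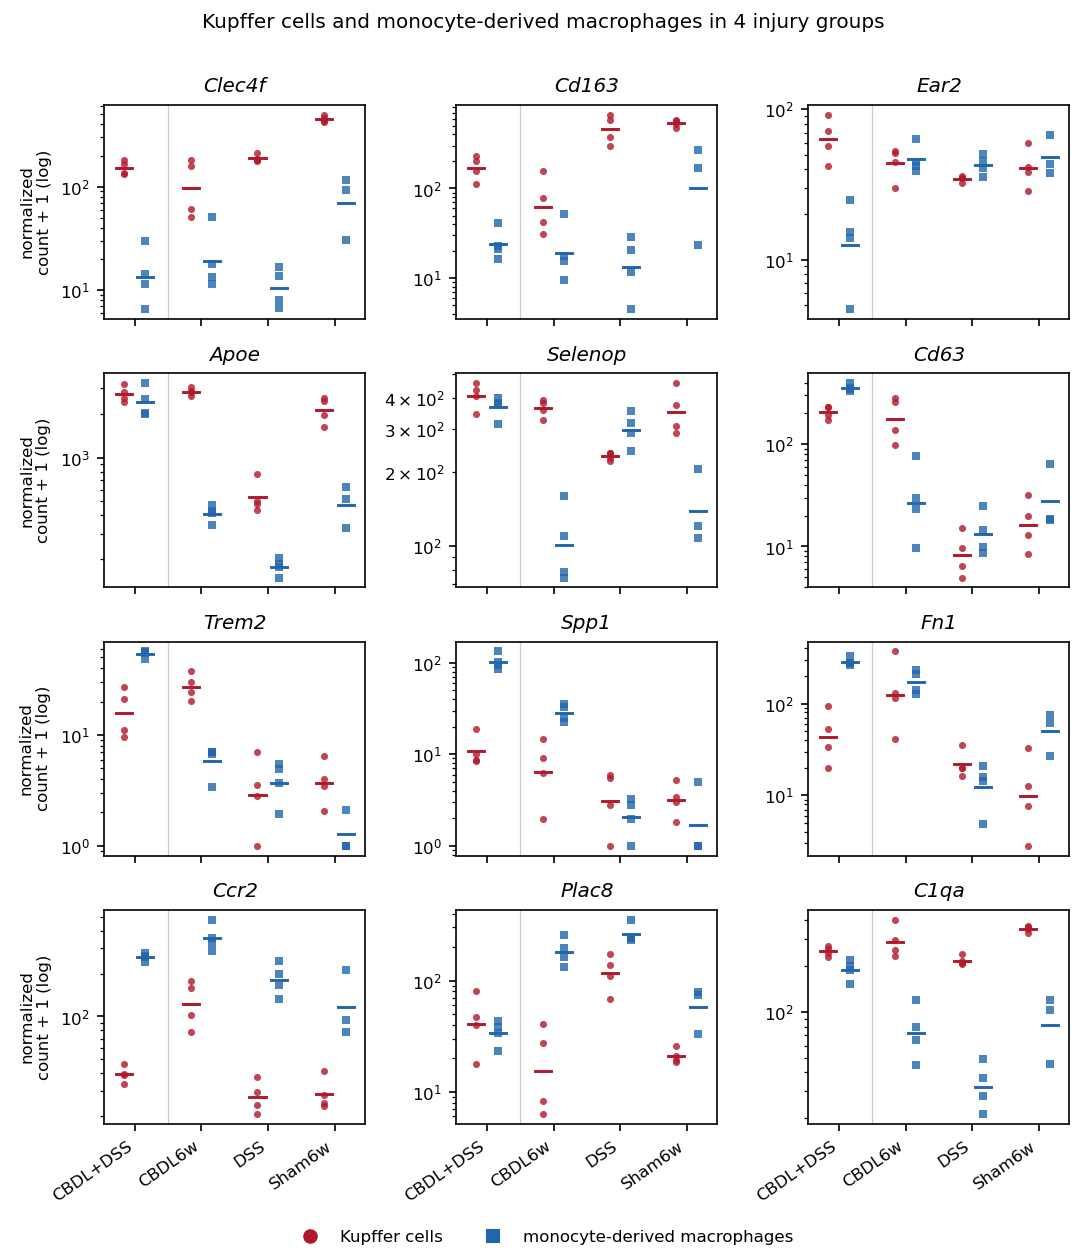
Normalized count plus 1 (y axis, log scale) of 12 genes in CBDL+DSS, CBDL6w, DSS and Sham6w livers (x axis), with 1 point per library and bars at the geometric means of count plus 1. Red circles are Kupffer cells and blue squares MoMFs. Apoe and Selenop overlap between the cell types in CBDL+DSS and lie apart in the other groups. Kupffer cells are the higher ones there, except for Selenop in DSS, where MoMFs are. Clec4f and Ccr2 lie apart in every group.

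Of 17 matrix genes, 4 were shifted downward and 2 upward against DSS (backgrounds 0.424% and 1.39%). Spp1 was at 10.6 ± 5.06 in Kupffer cells and 103 ± 20.9 in MoMFs of CBDL+DSS, and at 2.84 ± 2.37 in Kupffer cells and 1.24 ± 0.973 in MoMFs of DSS (interaction -3.83 ± 0.83, adjusted p = 0.00532). Fn1 was at 49.1 ± 32.0 in Kupffer cells and 287 ± 30.7 in MoMFs of CBDL+DSS, and at 21.9 ± 8.75 in Kupffer cells and 13.0 ± 6.73 in MoMFs of DSS (interaction -3.56 ± 0.66, adjusted p = 0.00167). In DSS both genes were low in either cell type and overlapped. Cd209f, a lectin of Kupffer cells, was at 1.47 ± 1.71 in Kupffer cells and 1.18 ± 1.29 in MoMFs of CBDL+DSS, and at 119 ± 29.9 in Kupffer cells and 2.90 ± 3.37 in MoMFs of DSS (interaction -5.27 ± 1.10, adjusted p = 0.00437), a call not made by edgeR or DESeq2.

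Against Sham6w the interaction of Spp1 was -4.12 ± 0.86 (adjusted p = 0.00408), a call that edgeR did not make. That of Trem2 was -3.31 ± 0.83 (adjusted p = 0.0204), which was lost in 4 of 22 alternatives, among them those without MoMF library 1+2+5 or Kupffer cell library 2 of Sham6w. Anxa2, an annexin, was at 25.2 ± 3.30 in Kupffer cells and 30.6 ± 6.47 in MoMFs of CBDL+DSS, and at 5.89 ± 4.09 in Kupffer cells and 86.3 ± 42.8 in MoMFs (n = 3) of Sham6w (interaction 3.49 ± 0.51, adjusted p = 7.6e-05). The T cell chemokine Ccl5 was at 1.72 ± 2.51 in Kupffer cells and 2.66 ± 1.88 in MoMFs of CBDL+DSS, and at 1.67 ± 0.967 in Kupffer cells and 121 ± 83.6 in MoMFs (n = 3) of Sham6w (interaction 4.58 ± 1.12, adjusted p = 0.016), and the antibody joining chain Jchain at 0.149 ± 0.298 in Kupffer cells and 1.53 ± 2.13 in MoMFs of CBDL+DSS, and at 0.951 ± 1.10 in Kupffer cells and 141 ± 117 in MoMFs (n = 3) of Sham6w (interaction 5.21 ± 1.18, adjusted p = 0.00791), a call not made by edgeR or DESeq2. All 5 T and natural killer cell genes and all 3 B and plasma cell genes tested were lower in Kupffer cells of Sham6w (background 6.83%), and their part in these values was not tested.

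Pecam1 and Fyn were shifted upward against DSS. Pecam1, an adhesion molecule also of endothelium, was at 39.9 ± 8.70 in Kupffer cells and 14.9 ± 4.82 in MoMFs of CBDL+DSS, and at 21.4 ± 2.30 in Kupffer cells and 53.8 ± 22.5 in MoMFs of DSS (interaction 2.57 ± 0.53, adjusted p = 0.00337), though its own call in CBDL+DSS was lost without MoMF library 1 or Kupffer cell library 2 or 4+5. Of the 17 endothelial markers, 1 was lower in Kupffer cells of CBDL+DSS (background 2.17%) and 13 in those of DSS (background 7.2%), and their part in this value was not tested. Fyn, a Src family kinase, was at 37.1 ± 10.8 in Kupffer cells and 15.1 ± 9.47 in MoMFs of CBDL+DSS, and at 15.7 ± 2.65 in Kupffer cells and 80.8 ± 14.9 in MoMFs of DSS (interaction 3.74 ± 0.75, adjusted p = 0.00287).

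Some genes were called in opposite directions, and those among them outside the naming rule were chosen after their values were seen. Ifitm6 and Idh3a, a mitochondrial dehydrogenase subunit, were higher in Kupffer cells of CBDL+DSS and lower in those of CBDL6w, where 4.33% of all genes were called lower. Gngt2, Nab1, Pecam1, Prr13, Stx11 and Zyx were higher in CBDL+DSS and lower in DSS. Prr13 was also higher in CBDL+DSS and lower in Sham6w, and Apobec1 and Dhrs3 were lower in CBDL+DSS and higher in Sham6w. The Dhrs3 call in CBDL+DSS was lost in 9 of 16 alternatives. Among them were those without Kupffer cell library 1+3, 2 or 4+5 or MoMF library 1, 3 or 4+5.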

How the data were processed

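RNA of liver macrophages was read with a 3′ tag kit (QuantSeq 3′ mRNA FWD with unique molecular identifiers), per the labels' protocols. The deposited table holds normalized counts for 25307 genes in 58 libraries, a signal scaled by size factors. STAR 2.7.5b, RSEM 1.3.1, UMI-tools 1.0.1, Trimmomatic 0.39, DESeq2 and the build GRCm38.p6 appear in the submitters' processing notes, with no order. In every library the values were whole multiples of 1 step (100% within 0.01), so whole reads were recovered for depth and for the count tests. A 3′ tag counts the end of a transcript, so isoforms are not told apart. Several libraries pool replicates, per the labels.

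Genes with at least 10 normalized counts in at least 3 libraries were kept (7555). Log2(normalized count + 1) was fitted with limma 3.58.1 (trend, robust; R 4.3.3) over all 58 libraries in 15 groups of cell type and injury, which share 1 estimate of spread. Contrasts were Kupffer cells minus MoMFs, and interactions between injuries; p-values are two-sided and adjusted by Benjamini-Hochberg, with a threshold of 0.05. Differences of low genes are understated on this scale. Alternatives were count tests on the recovered reads (DESeq2 1.42.0, edgeR 4.0.16), another pseudocount, no filter, equal totals, the 8 libraries alone, a replicate block, single-number libraries only, and leaving out each library. Replicates of a group correlated at 0.887 to 0.93, and no pair was identical. The fit was also run on simulated counts, and the outcome is not reported here.

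Genes named are the 12 largest rises and 12 largest falls among called genes with a mean of at least 50, no overlap and no predicted gene, up to 4 called members of each of 41 lists, 11 fixed markers, and the 6 largest interactions in each direction. Members and lists were chosen with earlier results of these data known. Gene coordinates come from GENCODE M21 (25272 identifiers matched, 35 not), and promoters from RefSeq. A name in the text stands for the row of that symbol. A few genes that fall under these rules are not reported here.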

Additional observations from a re-analysis of the deposited data

Results flagged for a closer look

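In CBDL+DSS, 13 gene values stood far from the other 3 libraries of their group by Dixon's gap ratio, of 248 gene and group pairs looked at, and chance alone gives about 1 in 20. In normalized counts, Kupffer cell library 1+3 had Cd300e at 44.6, Itga6 at 6.97 and Spp1 at 18.1; Kupffer cell library 4+5 had Ccl5 at 5.44, Clec4a2 at 64.5, Ly6c1 at 0.777 and Spn at 4.66; Kupffer cell library 6 had Jchain at 0.597 and Lgals1 at 19.7; MoMF library 1 had Rnase4 at 79.0; MoMF library 3 had Nr1h3 at 48.2; MoMF library 4+5 had Fpr2 at 32.1 and Lsp1 at 63.3. The values of Jchain and Ly6c1 are under 1 normalized count, at the floor of detection. The 13 values lie in several libraries, and none of the marker lists of other cell types, immediate early, mitochondrial or ribosomal genes was far out in any library.

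The difference between Kupffer cells and MoMFs had another size in CBDL+DSS in 34 genes against CBDL6w, 137 against DSS and 150 against Sham6w, tested as an interaction in limma. The values below are on the log2 scale. Against CBDL6w, the upward interactions were 4.48 for Idh3a, 3.81 for Plac8, 3.80 for Ifitm6 and 2.42 for Ear2, and the downward ones -4.02 for Trem2, -3.54 for Cd63, -3.12 for Pf4, -2.77 for Cd93, -2.60 for Apoe and -1.70 for Selenop. Against DSS, the upward interactions were 3.74 for Fyn, 3.61 for Stx11, 2.64 for Ear2, 2.63 for Zyx, 2.57 for Pecam1, 2.57 for Cd207, 2.26 for Nab1, 2.18 for Gngt2 and 1.65 for Prr13, and the downward ones -5.27 for Cd209f, -3.83 for Spp1, -3.56 for Fn1, -3.23 for Rnase4, -2.98 for Ccl24, -2.34 for C1qa and -1.40 for Apoe. Against Sham6w, the upward interactions were 5.21 for Jchain, 4.58 for Ccl5, 3.78 for Spn, 3.49 for Anxa2, 2.57 for Ear2 and 1.67 for Prr13, and the downward ones -4.12 for Spp1, -3.45 for Gpnmb, -3.31 for Trem2, -2.99 for Dhrs3, -2.97 for F13a1, -2.76 for Dab2, -1.98 for Apoe and -1.94 for Apobec1. Of the 36 interactions named by the rule, 22 lost their call in 1 or more alternatives. Against Sham6w the call was lost in 13 of 22 alternatives for Gpnmb, 7 of 22 for F13a1 and 4 of 22 for Trem2. Against DSS it was lost in 7 of 23 for Rnase4, and against CBDL6w in 9 of 23 for Pf4.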

How the results depend on the processing

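Of 84 genes named for the difference between Kupffer cells and MoMFs in CBDL+DSS and called there, 44 kept the call under every alternative run and 40 lost it under 1 or more; of 36 named interactions these numbers were 14 and 22. None of them changed direction under these alternatives. The count of 369 genes was 452 with a pseudocount of 5, 314 without the filter on low values, 376 with equal totals, 377 with edgeR, 489 with DESeq2 and 414 from the 8 libraries alone, and 235 to 306 without 1 library (235 to 300 without a single-number one). With single-number libraries only, that is without pooled ones, 182 genes were called, and 14 interactions against CBDL6w, 62 against DSS and 21 against Sham6w; fewer libraries entered these fits. Without the filter, 21 interactions passed against CBDL6w and 86 against DSS. Against CBDL6w DESeq2 gave 69, of them 25 upward and 44 downward, beside 16 and 18 of the 34. Leaving out 1 library gave 21 to 40 against CBDL6w, 99 to 150 against DSS and 82 to 296 against Sham6w (111 to 296 for single-number libraries, and 82 and 236 without the joined MoMF libraries of Sham6w). Calls within lists also moved. From the 8 libraries alone, with fewer genes tested, heme and iron handling had 8 higher of 15, lectins 5 higher of 15, lineage factors 4 higher of 23 (also 4 by DESeq2), the lipid- and scar-associated list 5 lower of 16, classical monocyte genes 6 lower of 14 and immediate early genes 2 lower of 23. Without the filter, 3 scavenger receptors were higher, and 3 immediate early genes and 2 lectins lower. The interactions could not be fitted from the 8 libraries alone.

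The main fit did not pair libraries by replicate number, and the labels do not say whether a shared number means the same animals. Same-numbered libraries of different cell types in CBDL+DSS had deviations from their group means that correlated at -0.004 to 0.064. For libraries without a shared number the correlations were -0.047 to 0.042. Such low correlations cannot decide whether the libraries are paired. A fit with the replicate number as a block called 337 genes, 5 lower inflammatory genes where the fit without it had 3, and 45 interactions against CBDL6w, 119 against DSS and 202 against Sham6w.

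MoMF libraries were the shallower ones, which limits genes of low level there, and with 4 libraries a group a difference that missed the threshold is not shown to be absent. The time of colitis, the gates and whether libraries came from separate animals were not stated in the labels.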
